A study of Homo sapiens with 8 samples.

Results

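The interferon-response and IRF genes are described here in 4 human neuroblastoma cell lines treated with vehicle or with ciclopirox, an antifungal hydroxypyridone that chelates iron. The group was fixed as a list of 41 gene symbols, of which 40 had a probe set annotated to that symbol alone, and STAT2 was not analysed here. Each gene was read from its probe set with the highest mean over the 8 arrays, and 36 of the 40 genes reached the level set for testing, a mean of at least 3.208 on the log2 scale, as did 14517 of 19774 genes in the whole series. The lines were SKNAS, SKNAS/shHIF1a (a stable HIF1a knockdown derived from SKNAS), NB1691 and SKNBE2. Each was exposed for 48 h to vehicle or to 2.5 µM ciclopirox, with 1 array per line and treatment, so no line has a replicate array. The labels class SKNAS as c-Myc and the other lines as N-Myc, and the title of the series names JMJD2B, a histone demethylase, as the way to act on Myc.

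Interferons are secreted proteins that cells make when they sense viral or displaced nucleic acid. Type I interferons signal through the IFNAR receptor to a complex that holds STAT2 and IRF9 and binds interferon-stimulated response elements. Type II interferon acts through gamma-activated sites and turns on IRF1, itself a transcription factor that binds elements of the first kind. The induced genes include RNA sensors, proteins that block viral entry and translation, ubiquitin-like modifiers and the machinery that presents peptides on MHC class I molecules. In neuroblastoma, low MHC class I on adrenergic, MYCN-amplified cells is a known feature.

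The upstream sequences are shown first for some of the genes whose values differ by line or treatment below. RefSeq sequences of GRCh38.p14 were used for 31 of the 41 listed genes, STAT2 included, in 40 windows of 250 bases before a transcription start. The core of the interferon-stimulated response element, searched on both strands as GAAA, any 2 bases and GAAA, was in 24 of these 40 windows (60%) and in at least 1 window of 21 genes, against 1061 of 35116 windows of all genes (3.02%). The gamma-activated site, searched as TTCNNNGAA, which reads the same pattern on both strands, was in 10 windows (25%) of 9 genes, against 2306 of all windows (6.57%). The windows of IFIT3, GBP1, ISG20, OAS3, TAP1 and IRF1 belong to genes whose level differed by 2-fold or more between treatments in both SKNAS lines. Those of IFITM3 and IFI44 belong to genes with a large difference between lines and no such increase. Capitals mark matches to either motif. A match describes the letters and not a bound site, and a window without a match says nothing about a factor.
IFIT3, chr10:89327747-89327996, plus strand: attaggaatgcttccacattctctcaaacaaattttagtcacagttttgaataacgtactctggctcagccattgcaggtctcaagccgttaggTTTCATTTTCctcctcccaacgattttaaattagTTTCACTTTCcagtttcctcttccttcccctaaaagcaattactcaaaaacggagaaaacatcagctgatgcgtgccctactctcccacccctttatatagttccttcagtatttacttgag
GBP1, chr1:89065209-89065458, minus strand: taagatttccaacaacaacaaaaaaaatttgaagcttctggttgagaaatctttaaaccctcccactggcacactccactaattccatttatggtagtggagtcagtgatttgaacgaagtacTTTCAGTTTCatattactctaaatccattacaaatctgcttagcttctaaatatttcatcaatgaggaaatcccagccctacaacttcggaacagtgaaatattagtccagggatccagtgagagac
ISG20, chr15:88638766-88639015, plus strand: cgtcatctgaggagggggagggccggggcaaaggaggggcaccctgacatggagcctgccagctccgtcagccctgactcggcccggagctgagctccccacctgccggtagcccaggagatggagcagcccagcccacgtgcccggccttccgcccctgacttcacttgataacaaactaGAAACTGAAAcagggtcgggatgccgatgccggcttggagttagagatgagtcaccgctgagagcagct
OAS3, chr12:112938224-112938473, plus strand: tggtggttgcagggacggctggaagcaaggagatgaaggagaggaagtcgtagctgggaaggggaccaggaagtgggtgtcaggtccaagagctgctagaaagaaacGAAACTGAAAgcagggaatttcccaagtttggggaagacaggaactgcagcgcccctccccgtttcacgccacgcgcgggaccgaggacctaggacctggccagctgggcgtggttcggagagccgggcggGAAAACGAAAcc
TAP1, chr6:32853705-32853954, minus strand: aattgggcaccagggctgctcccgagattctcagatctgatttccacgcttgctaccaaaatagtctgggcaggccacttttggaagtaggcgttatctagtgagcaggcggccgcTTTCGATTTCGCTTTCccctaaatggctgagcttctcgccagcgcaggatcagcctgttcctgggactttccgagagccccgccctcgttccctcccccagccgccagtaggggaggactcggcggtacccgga
IRF1, chr5:132490774-132491023, minus strand: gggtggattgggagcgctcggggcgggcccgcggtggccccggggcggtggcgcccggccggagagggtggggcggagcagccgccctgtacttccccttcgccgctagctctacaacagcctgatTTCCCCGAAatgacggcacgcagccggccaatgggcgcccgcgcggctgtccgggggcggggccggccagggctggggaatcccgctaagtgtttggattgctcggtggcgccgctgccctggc
IFITM3, chr11:320861-321110, minus strand: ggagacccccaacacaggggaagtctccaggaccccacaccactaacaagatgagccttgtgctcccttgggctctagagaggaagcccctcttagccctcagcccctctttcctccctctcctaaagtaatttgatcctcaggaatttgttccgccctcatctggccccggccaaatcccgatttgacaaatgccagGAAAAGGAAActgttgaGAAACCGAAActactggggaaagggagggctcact
IFI44, chr1:78649539-78649788, plus strand: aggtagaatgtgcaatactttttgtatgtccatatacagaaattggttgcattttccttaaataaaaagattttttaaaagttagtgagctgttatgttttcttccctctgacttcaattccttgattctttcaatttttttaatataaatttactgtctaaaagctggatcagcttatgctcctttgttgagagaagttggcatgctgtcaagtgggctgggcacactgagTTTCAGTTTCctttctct

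The windows differ in the kind of match they hold. IFIT3 had 2 separate matches to the response element core, starting 156 and 122 bases before the start site in the window shown (a second window had 2 more, at 94 and 51), OAS3 had 2, at 143 and 12 bases, and the 2 in TAP1, at 134 and 128 bases, overlap each other, while a second TAP1 window held no core match and 1 TTCNNNGAA, at 189 bases. GBP1 and ISG20 had 1 match each, at 127 and 69 bases. IRF1 had no match to that core in this window and 1 match to TTCNNNGAA, at 124 bases. IFITM3 had 2 matches to the core close to the start, at 52 and 35 bases, and IFI44 had 1, at 18 bases. The motif was therefore present both in windows of genes with a 2-fold difference between treatments in the SKNAS lines and in windows of genes without one. Windows not shown include those of other genes with a large difference between lines. PSMB9 and DTX3L had no match to either motif, and IFI35 had a TTCNNNGAA and no core match. IFIH1, SAMD9 and PARP9 had the core in at least 1 window.

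Facts of the whole data set that bear on these genes are few. Array medians lay between 3.47 and 3.52, and no 2 arrays held identical values. HIF1A, the gene targeted in SKNAS/shHIF1a, had levels of 12.25 under vehicle and 11.94 under ciclopirox in SKNAS, and of 11.71 and 11.09 in SKNAS/shHIF1a, so the library labelled as the knockdown lay slightly below its parent at the RNA level. In the order SKNAS, SKNAS/shHIF1a, NB1691 and SKNBE2, vehicle levels of MYCN were 2.77, 5.41, 12.05 and 12.48, and those of MYC were 10.16, 9.86, 2.70 and 2.66. The label N-Myc on SKNAS/shHIF1a therefore goes with MYC and MYCN levels nearer to those of its c-Myc parent. The lines are grouped below by origin. SKNAS and SKNAS/shHIF1a are related cells, not independent lines.

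Under vehicle, 13 of the 36 tested genes were higher in the 2 SKNAS lines than in NB1691 and SKNBE2. Antiviral membrane proteins (IFITM2, IFITM3), guanylate-binding proteins (GBP1, GBP2) and the MHC class I loading genes TAP1 and PSMB9 passed the test. So did the sensor IFIH1 and the PARP9 and DTX3L pair. The differences of these genes were 3.54 to 8.33 on the log2 scale by the brightest probe set. In limma on the 4 vehicle arrays, with Benjamini-Hochberg adjustment over 14517 genes, 13 of the 36 tested genes were higher and 0 were lower. The corresponding shares of all genes were 1.05% higher and 0.620% lower, 1.67% in all. At an unadjusted p under 0.05, 23 were higher (10.8% of all genes) and 0 lower (9.56%). SKNAS/shHIF1a derives from SKNAS, so the standard errors and p-values by origin may be too small for a comparison of independent lines. The tested level is a mean over all arrays, and 13 of the 36 genes reached it through the SKNAS lines alone, since their mean over the 4 arrays of NB1691 and SKNBE2 lay under it. Of the 13 called genes 9 are of this kind (IFIH1, IFIT3, IFITM2, IFITM3, GBP1, IFI44, SAMD9, TAP1 and PSMB9), so for them a difference was built into being tested. The other 4 are GBP2, PARP9, DTX3L and IFI35. The sizes of the differences depended on the probe set. Further sets above the tested level gave 2.07 in place of 4.18 for PARP9 and 2.13 in place of 4.95 for SAMD9. IFI44 had 3.11 in place of 6.50, and IFIT3 was likewise smaller. For GBP1 such sets gave 3.33 and 5.09 beside 4.90, and for GBP2 3.71 beside 3.54. In all of these the SKNAS lines remained higher.

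The IFITM proteins sit in membranes and hinder the fusion of enveloped viruses with the cell. IFITM3 had vehicle levels of 11.78 in SKNAS and 11.15 in SKNAS/shHIF1a, and of 3.38 in NB1691 and 2.89 in SKNBE2. The difference by origin was 8.33 ± 0.35 (SE, 2 lines against 2, limma adjusted p = 0.0168). IFITM2 had levels of 10.80 and 9.68 in the SKNAS lines and of 3.21 and 2.98 in the others, a difference of 7.14 ± 0.46 (adjusted p = 0.026). For both genes the groups were far apart, and the lower lines were close to the level of the filter. IFITM1 was not called, with 5.75, 3.87, 2.83 and 3.13 in the order SKNAS, SKNAS/shHIF1a, NB1691 and SKNBE2, an order kept in the sentences that follow. IFITM2 and IFITM3 are near-identical copies in 1 cluster, with IFITM1 between them, so their probe sets may share signal. BST2, or tetherin, which holds budding virions at the surface, had 6.45, 7.92, 5.02 and 4.27, a difference of 2.54 (adjusted p = 0.158).

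IFI44 and IFI44L are neighbouring genes of the interferon response. IFI44 had vehicle levels of 8.31 and 9.55 in the SKNAS lines against 2.38 and 2.48, a difference of 6.50 ± 0.49 (limma adjusted p = 0.0329). IFI44L had 5.19, 8.08, 2.85 and 3.09, and its difference of 3.66 ± 1.07 was not called (adjusted p = 0.192). The 2 SKNAS lines lay apart from each other for IFI44L by more than SKNAS lay above the other lines. SAMD9, an antiviral factor that restricts poxviruses, had 7.77, 7.36, 2.55 and 2.68 (4.95 ± 0.25, adjusted p = 0.019). IFI35 had 7.27, 7.18, 3.45 and 3.54, and the difference of 3.73 ± 0.19 was called (adjusted p = 0.02). IFI27 was the one tested gene whose vehicle level was lower in both SKNAS lines than in both others, with 3.15, 3.0, 4.0 and 3.36, a difference of -0.60 that did not pass.

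Both genes of MHC class I peptide supply were called. PSMB9, a catalytic subunit of the immunoproteasome, had 8.58 and 8.11 in the SKNAS lines and 3.10 and 3.14 in the others (5.23 ± 0.25, limma adjusted p = 0.019). TAP1, a subunit of the transporter that carries peptides into the endoplasmic reticulum, had 7.27 and 6.37 against 2.98 and 2.86 (3.90 ± 0.38, adjusted p = 0.0471). The 2 genes lie next to each other, head to head, and their upstream windows share 13 bases. In NB1691 and SKNBE2 both genes were under the tested level under vehicle.

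Among the GTPases, GBP1 had vehicle levels of 7.33, 7.47, 2.59 and 2.40 (4.90 ± 0.21, limma adjusted p = 0.0168), and GBP2 had 7.52, 7.17, 3.82 and 3.79 (3.54 ± 0.23, adjusted p = 0.0261). Guanylate-binding proteins act against intracellular pathogens. The sensor of double-stranded RNA encoded by IFIH1 (MDA5) had 7.15, 6.37, 2.61 and 2.55 (4.18 ± 0.34, adjusted p = 0.0355). IFIT3, a member of the family that binds foreign RNA and blocks its translation, had 7.57, 7.67, 2.67 and 3.38 (4.59 ± 0.32, adjusted p = 0.0295). In each of these genes the 2 SKNAS lines lay within 0.78 of each other, far less than the distance to the other lines. PARP9 and DTX3L, which form a complex of an ADP-ribosyltransferase-like protein and a ubiquitin ligase, had 8.37, 9.06, 4.57 and 4.49 (4.18 ± 0.31, adjusted p = 0.0329) and 9.11, 9.03, 5.15 and 5.44 (3.78 ± 0.22, adjusted p = 0.022).

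The transcription factors differed less. IRF1 had 5.92 and 5.52 in the SKNAS lines and 3.92 and 3.40 in the others, a difference of 2.06 that missed the threshold (limma adjusted p = 0.0866). IRF2, which competes with IRF1 for its elements, differed by 1.78 (adjusted p = 0.0517), and IRF9, the DNA-binding part of the type I complex, by 2.12, from 7.84, 7.24, 5.80 and 5.05 (adjusted p = 0.113). All 5 IRF genes of the list were above both other lines in both SKNAS lines, without a call, as were 27.4% of all genes. For IRF3 the gap was small, with 5.09 in SKNAS and 4.97 in SKNBE2. ISG15, a ubiquitin-like modifier, had 7.88, 8.20, 3.87 and 5.84, a difference of 3.19 ± 0.75 (adjusted p = 0.15). HERC5, its main ligase, did not follow origin: its levels were 7.97, 7.70 and 7.72 in SKNAS, SKNAS/shHIF1a and NB1691 and 3.04 in SKNBE2. The OAS genes did not divide the lines by origin either, with OAS1 at 6.01, 5.79, 5.07 and 6.53 (difference 0.10) and OAS3 at 6.47, 6.03, 4.36 and 6.55 (difference 0.80). Second probe sets gave differences of -0.45 for OAS1 and -0.00 for OAS3.

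**Figure D1:**
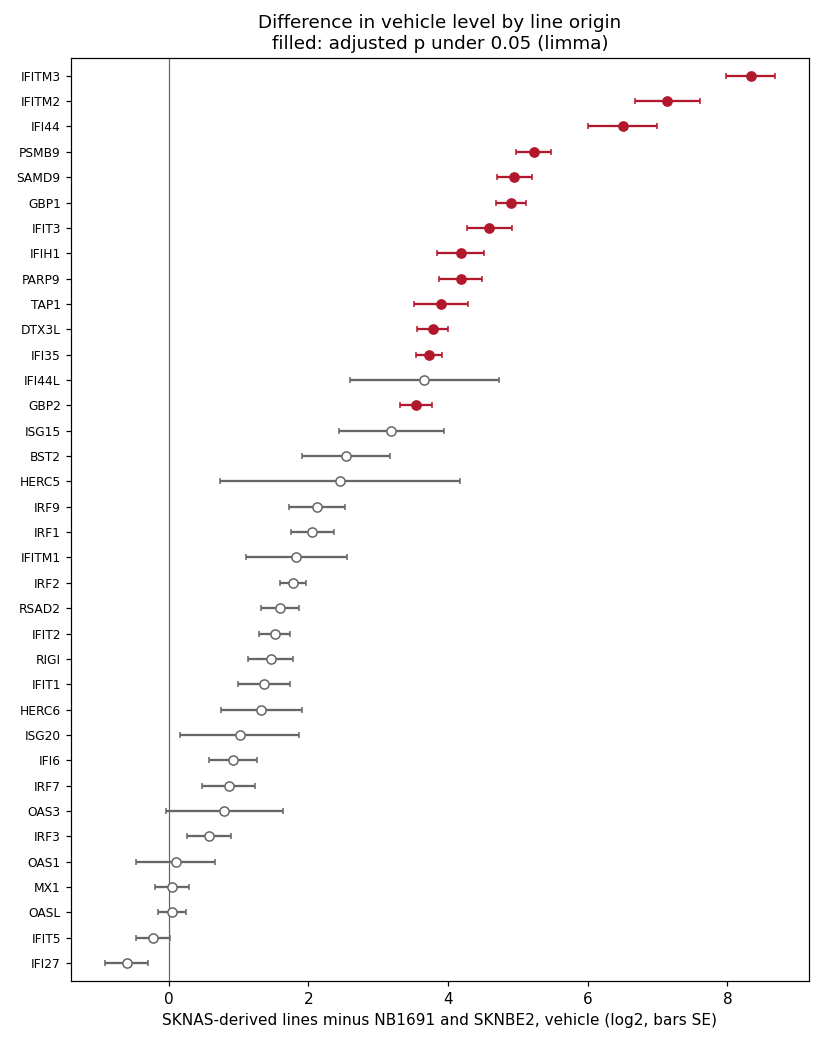
Difference in vehicle level between the SKNAS lines and the mean of NB1691 and SKNBE2 for the 36 tested genes, on the log2 scale with standard errors from limma (4 arrays). Filled points are the 13 genes past an adjusted p of 0.05, from GBP2 at 3.54 to IFITM3 at 8.33, and open points are the others, down to IFI27 at -0.60.

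Over the 36 genes, 28 were higher in both SKNAS lines than in both other lines (27.4% of all genes) and 1 was lower (28.2%). By the brightest probe set, 15 were at least 4-fold higher in this sense (2.25% of all genes). The median difference was 2.09, against -0.02 over all genes tested. Every gene that reached the tested level through the SKNAS lines alone is among the 28, and most of them are among the 15. These counts and the median were therefore in part built into being tested. The calls depended on having both SKNAS lines: without SKNAS or without SKNAS/shHIF1a, 0 genes and 0 of these 13 were called, while the 13 differences were 3.37 to 8.01 without SKNAS and 3.72 to 8.65 without SKNAS/shHIF1a. Markers of cell state moved with the same grouping, and their part in the result was not tested. Of 7 noradrenergic markers tested, TH, DBH and ISL1 were called lower in the SKNAS lines, by -4.20, -5.18 and -2.58, and of 7 mesenchymal markers YAP1 was called higher, by 5.28. PTPRC, the leukocyte antigen CD45, was higher by 7.38, with 11.53 in SKNAS and 9.57 in SKNAS/shHIF1a under vehicle against 3.12 and 3.22. The other 2 leukocyte markers tested, CORO1A and CD68, differed by -1.30 and -0.47 without a call, and CD3E, CD3D, MS4A1, CD14, LYZ and CSF1R were under the tested level on average. In an average over a culture, a larger share of cells with a transcript and more RNA per cell cannot be told apart.

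Ciclopirox went with higher levels of a small set of these genes, mainly in the SKNAS lines. By the brightest probe set, IRF1, ISG20, GBP2, GBP1, IFIT3, TAP1, OAS3 and IRF7 each differed by at least 2-fold between treatments in both SKNAS and SKNAS/shHIF1a. IRF1 was the one of the 36 that did so in all 4 lines, as did 0.124% of all genes. Among the genes 2-fold apart in both SKNAS lines, GBP1, IFIT3, TAP1 and IRF7 reached the tested level through the SKNAS lines alone. For these a contrast with the other lines was in part built into being tested. Of the 13 genes called by origin under vehicle, IFITM3, SAMD9, DTX3L, IFI35, IFIH1 and PSMB9 differed by less than 2-fold between treatments in every line. In limma with the line as a block, 0 of the 36 genes and 0 of all 14517 (0%) passed an adjusted p of 0.05, and the smallest adjusted p was 0.121 over all genes and 0.129, for IRF1, in this group. At an unadjusted p under 0.05, 7 of the 36 were higher (GBP1, GBP2, IFIT3, IRF1, IRF2, ISG20 and TAP1), against 7.67% of all genes, and 2 were lower (IFIT5 and IFITM2), against 10.2%.

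IRF1 had levels of 5.92 under vehicle and 8.63 under ciclopirox in SKNAS, 5.52 and 8.36 in SKNAS/shHIF1a, 3.92 and 4.99 in NB1691, and 3.40 and 4.81 in SKNBE2. Every ciclopirox array lay above the vehicle array of its line, and those of NB1691 and SKNBE2 stayed below the untreated SKNAS lines. The mean change was 2.01 ± 0.34 (SE, 4 lines, limma adjusted p = 0.129). A second IRF1 probe set gave changes of 2.91, 3.28, 0.51 and 0.55 in SKNAS, SKNAS/shHIF1a, NB1691 and SKNBE2, so the changes in the latter 2 lines were under 2-fold by that probe set. IRF7, the factor that amplifies type I interferon production, had 3.64 and 5.34 in SKNAS and 4.05 and 5.19 in SKNAS/shHIF1a, but 3.39 and 3.12 in NB1691 and 2.58 and 2.65 in SKNBE2 (mean change 0.66 ± 0.34, adjusted p = 0.355). The changes of IRF9 were 0.53, 0.74, 0.90 and -0.19 in the same order of lines, from the vehicle levels above to 8.37, 7.97, 6.70 and 4.85. IRF2 had levels of 5.78 to 8.12 over the 8 arrays with changes of -0.06 to 0.57, and IRF3, the factor activated directly by nucleic acid sensors, had 4.34 to 6.04 with -0.41 to 0.66.

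ISG20, a 3′ to 5′ exonuclease that degrades viral RNA, had the largest mean change of the 36 genes. Its levels were 5.04 and 7.89 in SKNAS, 5.98 and 9.03 in SKNAS/shHIF1a, 5.53 and 7.13 in NB1691, and 3.45 and 4.05 in SKNBE2 under vehicle and ciclopirox, and the mean change was 2.03 ± 0.42 (limma adjusted p = 0.153). The change was at least 2-fold in 3 lines and 0.60 in SKNBE2 with this probe set. A second ISG20 probe set gave 2.49 and 2.67 in the SKNAS lines but 0.62 in NB1691 and 0.38 in SKNBE2. By its brightest probe set, GBP2 also changed at least 2-fold in the 3 lines other than SKNBE2. It had 7.52 and 9.62, 7.17 and 9.20, 3.82 and 5.63, and 3.79 and 3.93, and a mean change of 1.52 ± 0.35 (limma adjusted p = 0.159). The change of GBP2 in NB1691 was 1.81 with this probe set and 0.39 with a second one, against 2.10 and 1.83 in SKNAS. GBP1 had 7.33 and 8.59, 7.47 and 8.60, 2.59 and 2.98, and 2.40 and 2.70, a mean change of 0.77 ± 0.20 (adjusted p = 0.181). The GBP1 levels of NB1691 and SKNBE2 stayed under the tested level on both treatments, so their changes of 0.39 and 0.30 are near background.

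IFIT3 and TAP1 were higher under ciclopirox in the SKNAS lines and near background in the others. IFIT3 had 7.57 and 9.26 in SKNAS and 7.67 and 9.69 in SKNAS/shHIF1a, against 2.67 and 2.86 in NB1691 and 3.38 and 3.42 in SKNBE2 (mean change 0.99 ± 0.38, limma adjusted p = 0.262). TAP1 had 7.27 and 8.46, and 6.37 and 8.73, against 2.98 and 2.94, and 2.86 and 3.29 (0.98 ± 0.39, adjusted p = 0.272). Its neighbour PSMB9 differed by less, with 8.58 and 9.11 in SKNAS, 8.11 and 9.03 in SKNAS/shHIF1a, 3.10 and 3.05 in NB1691, and 3.14 and 3.29 in SKNBE2. OAS3, a synthase of the 2′-5′ oligoadenylates that activate RNase L, had 6.47 and 7.68, 6.03 and 7.15, 4.36 and 4.83, and 6.55 and 6.17, with a mean change of 0.61 ± 0.28 (adjusted p = 0.316). Its relative OAS1 had 6.01 and 6.76 in SKNAS, 5.79 and 5.78 in SKNAS/shHIF1a, 5.07 and 5.15 in NB1691, and 6.53 and 6.22 in SKNBE2. The levels of OAS3 were as high in untreated SKNBE2 as in untreated SKNAS, but the change there was -0.38. A second, weaker OAS3 probe set gave changes of only 0.42 in SKNAS and 0.22 in SKNAS/shHIF1a.

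**Figure D2:**
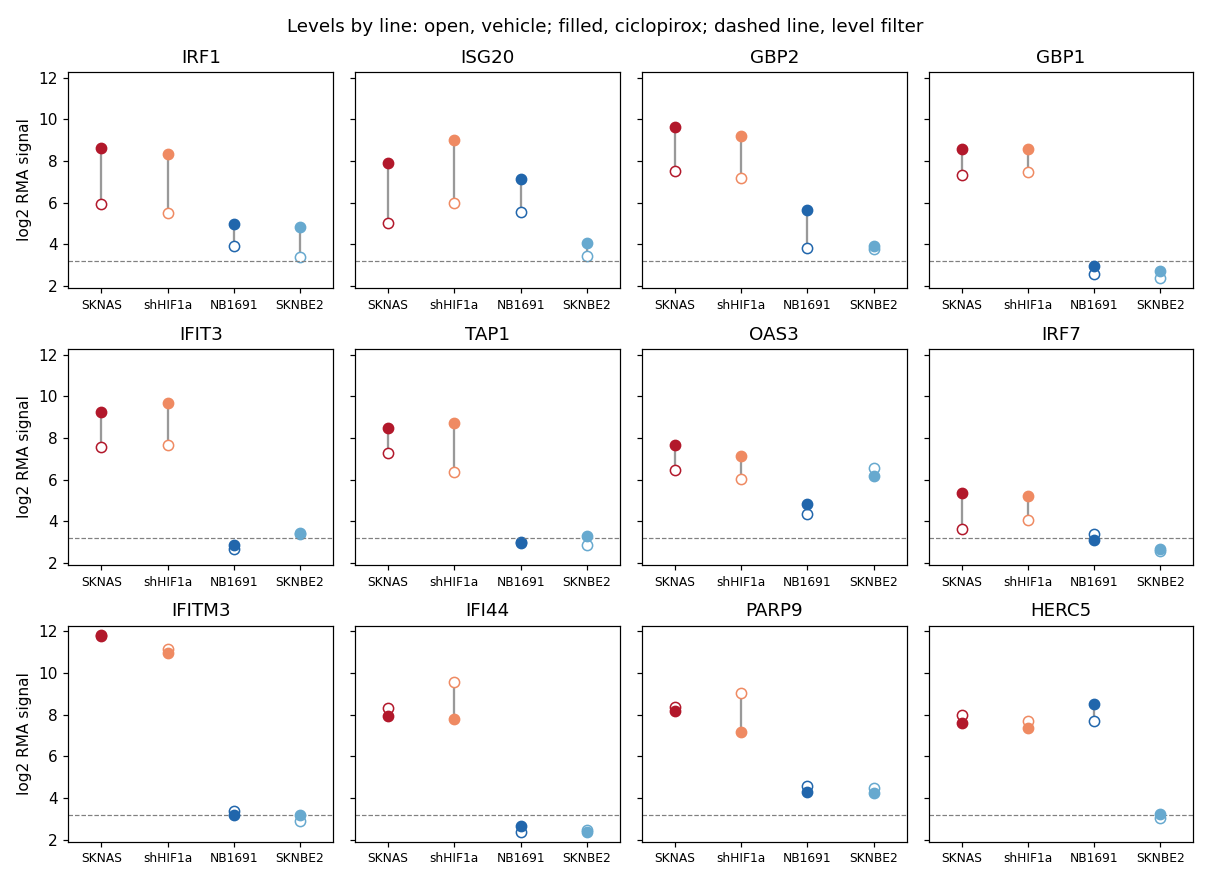
Log2 RMA levels of 12 genes by cell line, with vehicle as open and ciclopirox as filled circles (1 array each, no error bars) and the tested level of 3.208 as a dashed line; shHIF1a stands for SKNAS/shHIF1a. IRF1 lay higher under ciclopirox in all 4 lines, IFIT3 and TAP1 were high and differed by treatment in the SKNAS lines, IFITM3 differed by line and not by treatment, and HERC5 was low in SKNBE2.

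Among the other genes, by the brightest probe set, IFITM2 and IFIT5 were below vehicle in every line and RIGI above it in every line. IFITM2 was near background in NB1691 and SKNBE2. IFITM2 had 10.80 and 10.14 in SKNAS, 9.68 and 8.67 in SKNAS/shHIF1a, 3.21 and 2.92 in NB1691, and 2.98 and 2.93 in SKNBE2, with a mean change of -0.50 ± 0.18 (limma adjusted p = 0.25). IFITM3 had 11.78 and 11.81, 11.15 and 10.94, 3.38 and 3.20, and 2.89 and 3.17, so both SKNAS lines stayed near their vehicle level. IFIT5 had changes of -0.82 to -0.17 (mean -0.49 ± 0.14, adjusted p = 0.199), but a second IFIT5 probe set gave 0.17 in SKNAS. IFIT1 had changes of -0.17 to 0.32, IFIT2 of -0.02 to 0.98, RIGI of 0.09 to 0.76, OASL of -0.15 to 0.14, MX1 of -0.22 to 0.36, RSAD2 of -0.36 to -0.03 and IFI6 of -0.61 to 0.77. The classical antiviral genes MX1, the GTPase MxA, and OASL had levels of 3.03 to 3.39 and of 3.32 to 3.57 over all 8 arrays, close to the tested level in every line. OAS2, MX2, TRIM22 and XAF1 were below it on average, with levels of 2.56 to 3.70. For RIGI, the sensor RIG-I, 2 other probe sets gave larger changes in the SKNAS lines than the brightest one, 1.60 and 1.39 in SKNAS and 1.45 and 1.30 in SKNAS/shHIF1a, against 0.76 and 0.13. In NB1691 these 2 probe sets gave -0.24 and 0.43, and in SKNBE2 -0.30 and 0.01, so RIGI was not above vehicle in every line by each probe set.

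Some genes differed between treatments in 1 SKNAS line and not in the other. PARP9 had 8.37 and 8.20 in SKNAS but 9.06 and 7.17 in SKNAS/shHIF1a, with 4.57 and 4.29 in NB1691 and 4.49 and 4.24 in SKNBE2, and its mean change was -0.65 ± 0.31 (limma adjusted p = 0.329). A second PARP9 probe set gave 0.02 in SKNAS and -1.70 in SKNAS/shHIF1a. IFI44 had 8.31 and 7.95 in SKNAS and 9.55 and 7.81 in SKNAS/shHIF1a, with 2.38 and 2.67, and 2.48 and 2.37 in the other lines, but a second IFI44 probe set did not show the difference in SKNAS/shHIF1a (-0.03 against -1.74). HERC6 had 4.89 and 5.27 in SKNAS, 4.90 and 3.74 in SKNAS/shHIF1a, 4.32 and 3.95 in NB1691, and 2.82 and 3.06 in SKNBE2. IFI44L had 5.19 and 5.36, 8.08 and 7.29, 2.85 and 3.08, and 3.09 and 3.19. These 4 genes were thus lower under ciclopirox in the derivative, by -1.89, -1.74, -1.16 and -0.79, and within 0.37 of vehicle in SKNAS. IFITM1 showed the reverse, with 5.75 and 7.08 in SKNAS, 3.87 and 3.93 in SKNAS/shHIF1a, 2.83 and 2.87 in NB1691, and 3.13 and 2.87 in SKNBE2. Markers of other cell types differed between treatments in the same lines in both directions, none past the test, and their part in these values was not tested. In SKNAS and SKNAS/shHIF1a, the changes were -1.11 and -3.23 for PTPRC, 1.04 and 1.23 for the macrophage marker CD68, and -0.02 and -0.90 for CORO1A. Of the endothelial markers, EMCN had -0.31 and -2.97, PECAM1 0.71 and 1.48, and VWF 0.32 and -0.26. Of the 5 epithelial markers tested, KRT7 had 2.13 and 4.55 and CLDN4 1.62 and 1.01, while KRT8, KRT18 and EPCAM had changes of -0.22 to 1.26 in these 2 lines.

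The remaining genes varied by line more than by treatment. IFIH1 had 7.15 and 7.31, 6.37 and 7.02, 2.61 and 2.64, and 2.55 and 2.50, and SAMD9 had 7.77 and 8.01, 7.36 and 7.44, 2.55 and 2.81, and 2.68 and 2.64. DTX3L had 9.11 and 9.30, 9.03 and 8.99, 5.15 and 5.08, and 5.44 and 5.83, although its partner PARP9 was lower in the treated derivative. IFI35 had 7.27 and 7.83, 7.18 and 7.45, 3.45 and 3.14, and 3.54 and 3.74. ISG15 had 7.88 and 7.97, 8.20 and 8.87, 3.87 and 4.50, and 5.84 and 4.87, with opposite signs in NB1691 and SKNBE2. HERC5 had 7.97 and 7.62, 7.70 and 7.37, 7.72 and 8.50, and 3.04 and 3.25. BST2 had 6.45 and 6.74, 7.92 and 7.61, 5.02 and 5.73, and 4.27 and 4.76. IFI27 had 3.15 and 3.66, 3.0 and 3.01, 4.0 and 4.16, and 3.36 and 3.26, all near the tested level.

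**Figure D3:**
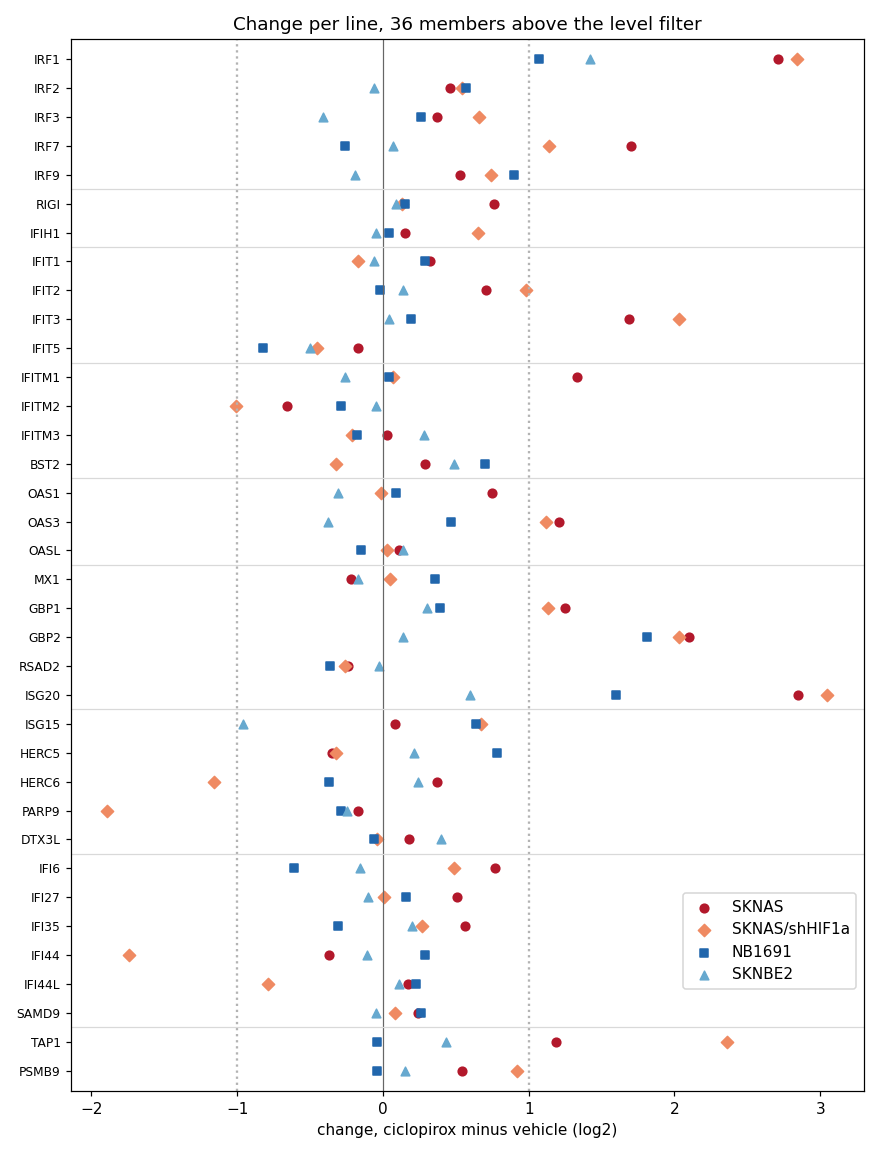
Ciclopirox minus vehicle change on the log2 scale for the 36 tested genes, 1 symbol per cell line and no error bars because each change is 1 array against 1, with dotted lines at a 2-fold change. The points of the SKNAS lines for IRF1, ISG20, GBP2 and IFIT3 lie at 1.69 to 3.05, and those of SKNAS/shHIF1a for PARP9 and IFI44 lie at -1.89 and -1.74.

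Counted per line, 9 of the 36 genes were at least 2-fold higher under ciclopirox in SKNAS (3.38% of all genes), 8 in SKNAS/shHIF1a (5.52%), 3 in NB1691 (3.31%) and 1 in SKNBE2 (2.11%). The 3 genes in NB1691 (GBP2, IRF1 and ISG20) and the 1 in SKNBE2 (IRF1) were under 2-fold there by a second probe set. In SKNAS and SKNAS/shHIF1a, OAS3 was under 2-fold by a second probe set, at 0.42 and 0.22. RIGI, not counted by its brightest probe set, was over 2-fold in both lines by its other sets (1.60 and 1.45, 1.39 and 1.30). At least 2-fold lower were 4 genes in SKNAS/shHIF1a (4.31% of all genes) and 0 in SKNAS (1.62%), NB1691 (5.12%) and SKNBE2 (1.25%). IFI44, among those 4, was at -0.03 there by a second probe set. The 8 genes that were 2-fold higher in both SKNAS lines compare with 2.47% of all genes, and the 1 gene, IRF1, in both other lines with 0.468%. GBP1, IFIT3, IRF7 and TAP1 among these 8, and IFITM1 among the 9 of SKNAS, reached the tested level through the SKNAS lines alone. The counts of the SKNAS lines, beside those of the other lines and of all genes, were therefore in part built into being tested. Over all 4 lines, 6 genes were above vehicle in each (11.8% of all genes) and 4 were below in each (16.0%). The median change of the 36 genes was 0.42 in SKNAS, 0.10 in SKNAS/shHIF1a, 0.16 in NB1691 and 0.01 in SKNBE2, against -0.02, -0.03, -0.02 and -0.01 over all genes.

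The difference in response by origin was tested on the 4 changes, where the SKNAS side is again a line and its derivative. IFIT3, IRF1, ISG20, IRF7 and TAP1 had changes 1.52 to 1.85 larger in the SKNAS lines than in NB1691 and SKNBE2, but none passed the test over all genes. In limma with Benjamini-Hochberg adjustment, 5 of 14517 genes (0.0344%) were called and 0 of the 36, and 0 were called over all genes when any 1 line was left out. At an unadjusted p under 0.05, 10 of the 36 had a larger change in the SKNAS lines (6.35% of all genes) and 2, HERC5 and IFITM2, a smaller one (4.97%). IFIT3, IRF7, TAP1, GBP1 and PSMB9 among the 10, and IFITM2, reached the tested level through the SKNAS lines alone. Their levels in NB1691 and SKNBE2 were near background, so a difference in change was in part built into being tested.

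IFIT3 had changes of 1.69 and 2.03 in SKNAS and SKNAS/shHIF1a and of 0.19 and 0.04 in NB1691 and SKNBE2, a difference of 1.74 ± 0.25 (SE, 2 lines against 2, limma adjusted p = 0.157). IRF1 had 2.71 and 2.84 against 1.07 and 1.42, a difference of 1.54 ± 0.25 (adjusted p = 0.181), with a change above 0 in every line. IRF7 had 1.70 and 1.14 against -0.26 and 0.07 (1.52 ± 0.30, adjusted p = 0.223). The 4 values of each of these genes did not overlap by origin, with the SKNAS lines higher, as in 21.1% of all genes. ISG20 had 2.85 and 3.05 against 1.60 and 0.60 (1.85 ± 0.38, adjusted p = 0.225), and TAP1 had 1.19 and 2.36 against -0.04 and 0.43 (1.58 ± 0.45, adjusted p = 0.333). GBP2 had 2.10 and 2.03 against 1.81 and 0.14, so NB1691 lay near the SKNAS lines (1.09 ± 0.56, adjusted p = 0.544). OAS3 had 1.21 and 1.12 against 0.47 and -0.38 (1.12 ± 0.34, adjusted p = 0.357), and GBP1 had 1.25 and 1.13 against 0.39 and 0.30 (0.84 ± 0.23, adjusted p = 0.318).

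HERC5 and IFI6 had opposite signs by origin, as had 6.53% of all genes in the direction of HERC5 and 6.36% in that of IFI6. HERC5 had changes of -0.35 and -0.32 in the SKNAS lines and of 0.78 and 0.21 in NB1691 and SKNBE2 (-0.83 ± 0.28, limma adjusted p = 0.394), and IFI6, a mitochondrial and endoplasmic reticulum protein, had 0.77 and 0.49 against -0.61 and -0.16 (1.02 ± 0.28, adjusted p = 0.318). Of the 36 genes, 16 had both changes of the SKNAS lines above both of the others (21.1% of all genes), and 4, BST2, HERC5, IFI44 and IFITM2, had them below (22.5%). GBP1, IFIH1, IFIT3, IFITM1, IRF7, PSMB9 and TAP1 of the 16, and IFI44 and IFITM2 of the 4, reached the tested level through the SKNAS lines alone. The median difference was 0.34, against -0.01 over all genes.

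SKNAS/shHIF1a and its parent differed in a few of these genes. IFI44L was higher in the derivative and IFITM1 was lower, and both passed the test. Both genes were under the tested level on every array of NB1691 and SKNBE2, so they were tested because of the SKNAS lines. The fit took its spread from all 8 arrays, those near background included. In limma over all 8 arrays, with line and treatment as terms, 1 of the 36 genes was higher (0.744% of all genes) and 1 lower (0.840%). IFI44L was higher by 2.89 under vehicle and by 1.93 under ciclopirox, a difference of 2.41 ± 0.29 (SE, 2 arrays against 2, adjusted p = 0.0193). IFITM1 was lower by -1.88 and -3.15, a difference of -2.52 ± 0.39 (adjusted p = 0.0433). Of the cell type markers, mesenchymal AXL (-4.29, adjusted p = 0.00713) and epithelial KRT18 (-3.66, adjusted p = 0.00397) were called lower in the derivative in the same fit, and their part in these differences was not tested.

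The other IFITM genes lay the same way without a call, with IFITM2 at -1.29 ± 0.26 (limma adjusted p = 0.0926) and IFITM3 at -0.75 ± 0.19 (adjusted p = 0.17). IFIT1, which binds uncapped viral RNA, differed by -1.06 ± 0.20 (adjusted p = 0.0759), and BST2 by 1.17 ± 0.27 (adjusted p = 0.131). IFI44 was higher in the derivative by 1.24 under vehicle and differed by -0.14 under ciclopirox, and PARP9 by 0.69 and -1.03. By a second IFI44 probe set the derivative was higher by 1.19 as a mean of both treatments. That set changed by -0.20 in SKNAS and -0.03 in the derivative, so it did not show the loss of the difference under ciclopirox. HERC6 differed by 0.01 under vehicle and by -1.53 under ciclopirox. ISG20 was higher by 0.94 and 1.14 on the 2 treatments, while TAP1 went from -0.90 to 0.26. The 2 lines therefore did not differ in 1 direction over the group, whose median difference was -0.22, against -0.01 over all genes. The call of IFI44L was lost without SKNBE2 (adjusted p = 0.0569). That of IFITM1 was lost without NB1691 (adjusted p = 0.0873), without SKNBE2 (0.0801), with no level filter (0.0602), with the mean of its probe sets (0.0837) and with the arrays of the 2 lines alone (0.0543). The derivative is 1 stable line, so the knockdown and the derivation of the line cannot be told apart.

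**Figure D4:**
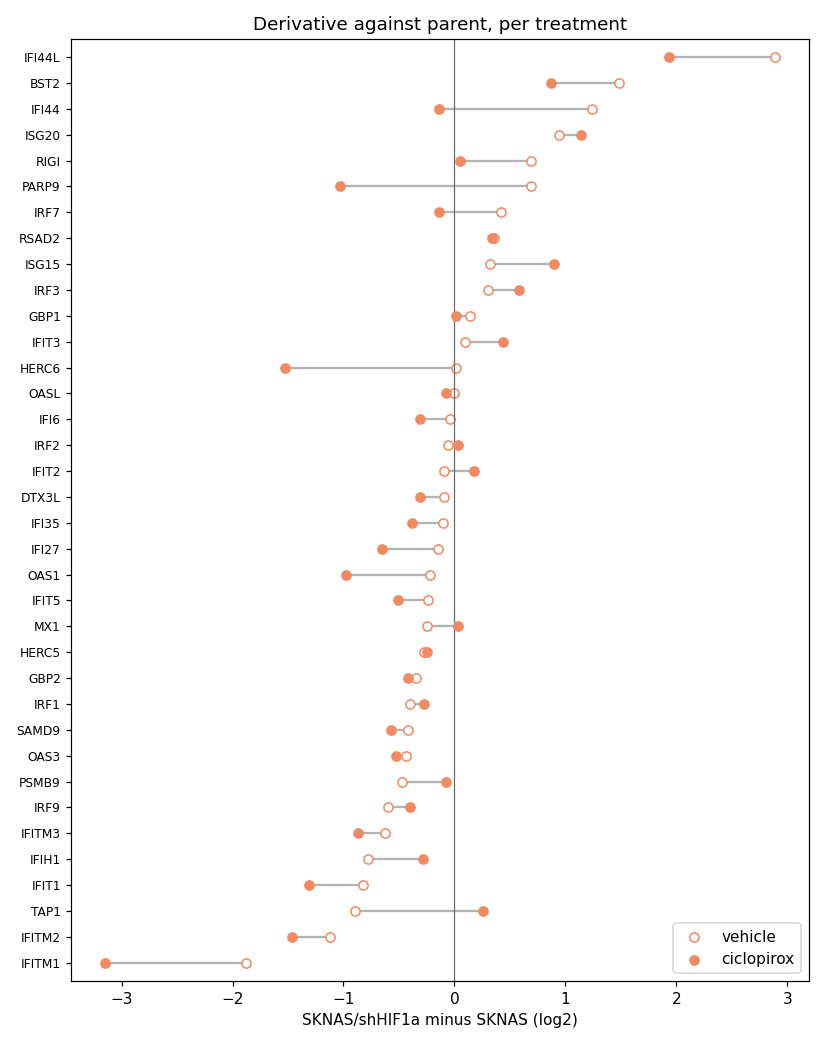
SKNAS/shHIF1a minus SKNAS on the log2 scale for the 36 tested genes, under vehicle (open) and ciclopirox (filled), each 1 array against 1 and without error bars. IFI44L lies at 2.89 and 1.93 and IFITM1 at -1.88 and -3.15, while PARP9 crosses from 0.69 to -1.03.

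NB1691 and SKNBE2 differed in HERC5, ISG20, IRF9 and IFI27, which were higher in NB1691, and in OAS1 and OAS3, which were higher in SKNBE2. These 6 of 36 genes passed limma's test over all arrays (4 higher, against 12.9% of all genes, and 2 lower, against 12.2%). HERC5 was higher in NB1691 by 4.96 ± 0.31 (SE, 2 arrays against 2, adjusted p = 0.00029), ISG20 by 2.58 ± 0.59 (adjusted p = 0.0263), IRF9 by 1.29 ± 0.29 (adjusted p = 0.0232) and IFI27 by 0.77 ± 0.20 (adjusted p = 0.0394). OAS3 was lower by -1.76 ± 0.40 (adjusted p = 0.025) and its neighbour OAS1 by -1.27 ± 0.27 (adjusted p = 0.0208). A second OAS3 probe set gave -0.20. Shares this close to those of all genes are not a result about the group, whose median difference was 0.05. Of the other interferon-pathway genes, JAK1, JAK2, STAT3, PTPN2, UBE2L6 and PLSCR1 were called higher in NB1691, by 0.59 (STAT3) to 4.51 (PLSCR1), and MYD88, TRAF3, IFI16, TRIM14, APOBEC3G, ZC3HAV1, WARS1 and ERAP1 lower, by -0.67 (ZC3HAV1) to -4.44 (IFI16).

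The rest of the interferon pathway showed where the group sits. Of 10 interferon genes, 9 had a probe set and 0 reached the tested level, and 8 of the 9 were under it on every array. IFNB1, the type I interferon that most cell types can make, had levels of 2.68 and 2.75 in SKNAS under vehicle and ciclopirox, and of 2.79 and 2.70 in SKNAS/shHIF1a. In the comparison by treatment 0 genes of the other lists passed limma's test. At an unadjusted p under 0.05 there were 1 of 9 receptors and kinases, 1 of 12 sensors and adaptors, 1 of 5 other IRF genes, 0 of 7 negative regulators, 6 of 28 other induced genes, 4 of 14 antigen presentation genes and 0 of 3 chemokines, beside 7.67% of all genes higher and 10.2% lower. IFNAR1, a chain of the type I receptor, had changes of 1.20 and 1.51 in the SKNAS lines against -0.59 and 0.29, and IFNGR2, a chain of the type II receptor, of 1.02 and 1.47 against -0.06 and -0.17.

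The sensors and induced genes outside the group followed origin in part. Under vehicle, 1 of 12 sensor and adaptor genes (TLR3, by 4.03), 1 of 7 negative regulators (SOCS3, by 5.45), 8 of 28 other induced genes and 1 of 14 antigen presentation genes (PSMB8, by 5.77) were called higher in the SKNAS lines by limma, and 0 were called lower. The share of all genes was 1.05% higher and 0.620% lower. The 8 were SP100, by 6.03, SP110, by 5.20, GBP3, by 4.65, PARP14, by 4.26, DDX60, by 3.95, NMI, by 3.73, TRIM5, by 2.98, and TRIM21, by 1.95. Of these 11 called genes, 5 (TLR3, SP100, PARP14, GBP3 and PSMB8) reached the tested level through the SKNAS lines alone. By treatment, STING1, the adaptor of cytosolic DNA sensing, had changes of 1.44 and 1.94 in the SKNAS lines, from vehicle levels of 2.76 and 2.98. It was under the tested level on 6 of 8 arrays, so it was tested because of the treated SKNAS lines. GBP3 had changes of 1.74 and 1.98 in the SKNAS lines. HLA-B, an MHC class I heavy chain whose probe set may share signal with its relatives, had 2.03 and 3.02, with 2.26 in NB1691 and 0.15 in SKNBE2. USP18, which restrains type I signalling, had changes of -0.50 in SKNAS and -1.0 in SKNAS/shHIF1a.

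The interferon-induced chemokines CXCL10, CXCL11 and CCL5 had larger changes in both SKNAS lines than any of the 36 genes. CXCL11 had levels of 2.72 and 7.02 in SKNAS, 3.12 and 7.53 in SKNAS/shHIF1a, 2.66 and 2.77 in NB1691, and 3.02 and 2.76 in SKNBE2 under vehicle and ciclopirox, and it passed the test for response by origin (4.44 ± 0.25, limma adjusted p = 0.0252). CXCL10 had changes of 6.13 and 3.99 in the SKNAS lines and of -0.24 and 0.20 in the others, and CCL5 of 3.75 and 6.34 against -0.13 and 0.08, neither past the test (adjusted p = 0.157 and 0.181). CXCL11 and CCL5 were under the tested level on 6 of 8 arrays each, so they were tested because of the treated SKNAS lines.

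**Figure D5:**
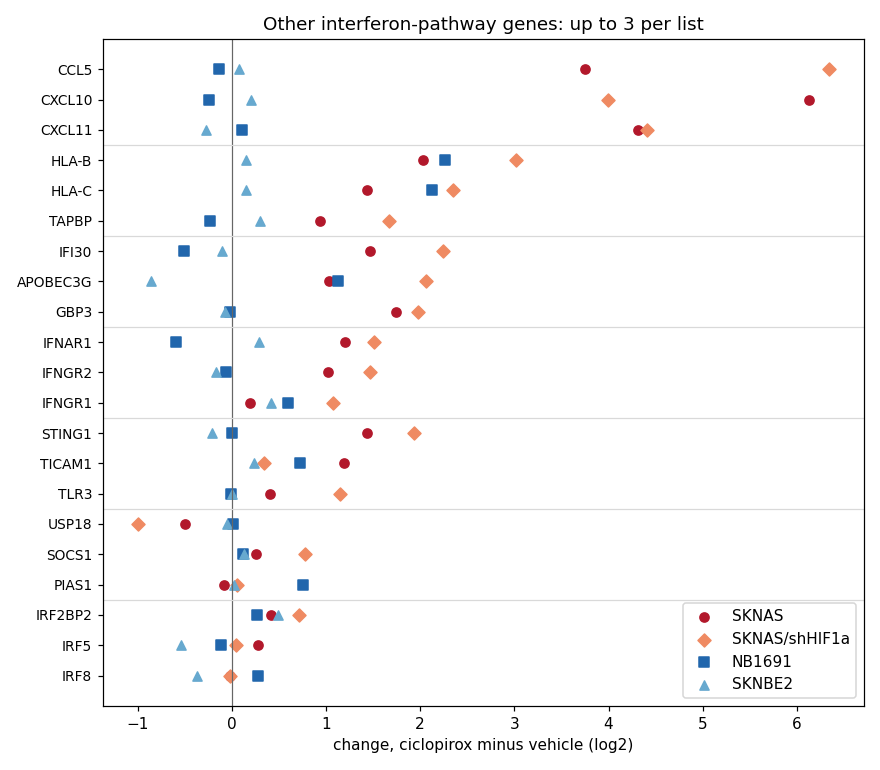
Ciclopirox minus vehicle change on the log2 scale for up to 3 genes of each other interferon-pathway list, 1 symbol per line and 1 array against 1. CXCL10, CXCL11 and CCL5 lie at 3.75 to 6.34 in the SKNAS lines and between -0.27 and 0.20 in NB1691 and SKNBE2, and HLA-B lies at 2.26 in NB1691.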

How the data were processed

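Total RNA of 8 samples was labelled as biotinylated cRNA and hybridised to Affymetrix 3′ arrays. The submitters' processing notes name RMA, without a version, and the deposited values lie on a log2 scale, as checked on their range. RMA scales arrays to a common distribution, so a shift of all genes would not be seen. No scaling was added.

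The members and lists were chosen with earlier results of these data known. Of 54715 probe sets, 102 were controls, 40914 carried 1 gene symbol, 864 several and 12835 none. Each gene was read from its brightest single-symbol probe set, and genes whose mean reached the 40th percentile over probe sets (log2 3.208) were tested. Tests were two-sided in limma 3.58.1 (R 4.3.3) with Benjamini-Hochberg adjustment over 14517 genes and a threshold of 0.05. Figures and tables were made with Python 3.11.15. Vehicle and ciclopirox arrays were paired by cell line. The pairing comes from the design, and Pearson r across genes between the deviations of a line's 2 arrays was 0.817 to 0.898. The treatment fit had 3 residual degrees of freedom, and those of response by origin and of vehicle levels had 2. The fits were tested on simulated data. Nothing says that arrays came from separate cultures of a line, so p-values measure the spread between lines or between these arrays. In the comparisons by origin the SKNAS side is a line and its derivative, so that spread may be understated.

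Values in every array are given for genes that passed any test, changed at least 2-fold in any line, or ranged over at least 3 (log2) between lines under vehicle, and the other genes are given by range. Other pathway genes are named where they passed the test, or as up to 3 per list with the largest change. IFNB1 was singled out after its values were seen. Of 15 genes with further probe sets above the tested level, 17 such sets gave the same sign of the mean change in 15 cases, the exceptions being OAS1 and RSAD2. Probe sets of the IFITM, IFIT, OAS, GBP and HLA families may share signal between near-identical copies. Alternatives were testing genes of any level, a filter at the 60th percentile, averaging the probe sets of a gene, quantile normalization, an intensity trend, no replicate block, a threshold of 0.1, leaving out each line, the mean of both arrays of a line, and the compared lines alone.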

Additional observations from a re-analysis of the deposited data

Results flagged for a closer look

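GBP2, PARP9 and IFI44L each had 1 line far from the other 3 in the ciclopirox minus vehicle change. For GBP2 this was SKNBE2, at 0.14 on the log2 scale against 1.81 to 2.10. For PARP9 and IFI44L it was SKNAS/shHIF1a, at -1.89 and -0.79, with the other lines of PARP9 between -0.29 and -0.17 and of IFI44L between 0.11 and 0.23. By a second GBP2 probe set SKNBE2 was not apart, at 0.46 beside 0.39 in NB1691, against 1.83 and 1.73 in the SKNAS lines. HERC5 had 1 line far from the others under vehicle, SKNBE2 at 3.04 against 7.70 to 7.97. With 4 values a group, such a gap arises by chance in about 1 in 20 groups. Both the changes and the vehicle levels of 36 genes were looked at, so more than 1 group per gene.

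HERC5 and IFI6 had changes of opposite sign by line origin, with no line as an exception. The change of HERC5 in the SKNAS lines minus that in NB1691 and SKNBE2 was -0.83 (limma adjusted p = 0.394), and that of IFI6 was 1.02 (adjusted p = 0.318), so neither difference passed the test. A change below 0 in both SKNAS lines and above 0 in both others, as in HERC5, was seen in 6.53% of all genes, and the reverse, as in IFI6, in 6.36%.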

How the results depend on the processing

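The number of arrays limits every value, and levels under 3.208 are near background. Of 537 refits of single genes, 472 kept direction and side of the threshold, 41 lost the call, 23 gained one and 1 reversed: ISG20 by origin under vehicle was -0.02 without SKNBE2 and 1.02 with it. The ciclopirox count was 0 of all genes under every alternative run, with no replicate block too, and 0 of the 36. For response by origin, with 5 genes called, the count was 9 with the mean of probe sets, 0 with an intensity trend, 13 at a threshold of 0.1 and 0 without any 1 line, with 0 of the 36 each time. For origin under vehicle, with 243 genes, it was 727 at 0.1, 534 with the mean of both arrays of a line, and 0 to 1610 without 1 line (0 without either SKNAS line, 645 without NB1691, 1610 without SKNBE2). Of the 36, 13 were called, and 0 to 16 without 1 line. With the 60th percentile filter the median of the genes tested was 3.54 in place of 2.09. For knockdown against parent, with 230 genes, the count was 433 at 0.1, 393 with the arrays of the 2 lines alone, and 139 to 184 without 1 line. Of the 36, 2 were called, with 1 under no filter, the 60th percentile filter or the mean of probe sets, 4 at 0.1 and 0 to 1 without 1 line. For NB1691 against SKNBE2, 10 of the 36 were called at 0.1, against 6. Where a count fell without a line, fewer samples were fitted, and causes beyond that were not tested. For origin under vehicle, the fits without NB1691 or without SKNBE2 took their residual spread from SKNAS and its derivative alone.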
